A study of Mus musculus with 2 samples.

Results

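Muscle progenitors that carried transcripts of Pax7, Myf5 or Cdh15 were described in single-cell RNA-sequencing libraries of mouse limb muscle. A cell barcode counted as a progenitor if it held at least 500 detected genes, under 10% mitochondrial UMIs, at least 2 UMIs of Pax7, Myf5 and Cdh15 combined, and no UMI of Myog, Mymk, Cdh5 or Ptprc. A UMI (unique molecular identifier) stands for 1 captured RNA molecule. The rule found 142 progenitor barcodes among 12271 kept barcodes in the E12.5 library, and 229 among 4106 in the E15.5 library, 371 of 16377 in all. E12.5 and E15.5 are days of embryonic development. Each age was represented by 1 library of wild-type C57Bl/6 embryos, in which muscle tissue of forelimbs and hindlimbs had been pooled and dissociated mechanically and with trypsin. The labels do not give the number of embryos. With 1 library per age no difference below has a replicate check, no test was made, and every interval is a 95% interval that covers counting error only. Where a pair of values is given for a group, E12.5 comes first and E15.5 second.

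Limb muscle arises from cells that leave the somites, migrate into the limb bud and keep dividing there while part of them differentiate. Pax7 is a paired-box transcription factor of these progenitors and of the later satellite cells, the stem cells of adult muscle. Myf5 is a basic helix-loop-helix (bHLH) factor that commits cells to the muscle lineage, and Cdh15, also called M-cadherin, is an adhesion molecule of muscle cells. Myog is the bHLH factor of terminal differentiation and Mymk the membrane protein needed for myoblast fusion. Barcodes with a UMI of either were left out as differentiating cells, while Cdh5 and Ptprc mark endothelial and blood cells. A barcode without a UMI of these genes may still have contained the transcript, and shallower barcodes are more likely to miss it. Embryonic myogenesis, which forms the primary fibres, gives way to foetal myogenesis, which forms the secondary fibres, between the ages sampled here. In the mouse genome (build GRCm38) Pax7 lies at chr4:139737062-139833528, Myf5 at chr10:107482908-107486134 and Cdh15 at chr8:122847966-122867397.

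Of the kept barcodes, 1.16% (interval 0.976 to 1.36) were progenitors in the younger library, against 5.58% (4.89 to 6.32) in the older one, 4.42 points more (3.73 to 5.18). The libraries differed in depth, and the rule counts UMIs, both of the genes it requires and of those it excludes. The median depth was 2453 and 9518 UMIs in kept barcodes, and 4300 and 14888 UMIs in progenitors. When every barcode was first thinned at random to 2000 UMIs, 58 of 8212 barcodes met the rule at E12.5 (0.706%, 0.537 to 0.912), and 36 of 3834 did at E15.5 (0.939%, 0.658 to 1.30). The difference was then 0.23 points (-0.10 to 0.62), so that a higher share at E15.5 was not detectable among barcodes with at least 2000 UMIs. Shallower barcodes were left out of these shares, and unevenly. At E12.5 they were 4055 other barcodes and 4 progenitors, and at E15.5 268 and 4. The shares at matched depth therefore do not cover all kept barcodes. Between the libraries 17 cell barcodes were the same, none of them a progenitor in both.

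Many progenitors lay close to the limit of the rule at E12.5. The summed UMIs of the 3 rule genes were exactly 2 in 83 of the 142 younger and in 45 of the 229 older progenitors, with a median of 2 and 5 and a highest value of 6 and 24. Just outside, 227 and 90 barcodes held 1 such UMI. Msc, a bHLH factor of muscle progenitors that the rule did not use, was at 245 CPM (counts per 1000000 summed UMIs of a group) in barcodes with a sum of 2 and at 134 CPM in those with a sum of 1 at E12.5, and at 267 and 66.8 CPM at E15.5. Prrx1, Pdgfra, Osr1 and Twist2, genes of limb connective tissue, summed to 218 CPM just inside and 692 CPM just outside at E12.5, and to 154 and 428 CPM at E15.5. Of the barcodes that reached 2 UMIs of the rule genes, 97 of 239 and 126 of 355 were left out for an excluding gene, nearly all of them for Myog or Mymk (94 and 122). Among the barcodes with the highest doublet scores were 17 of the 142 and 14 of the 229 progenitors, and they were kept.

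**Figure D1:**
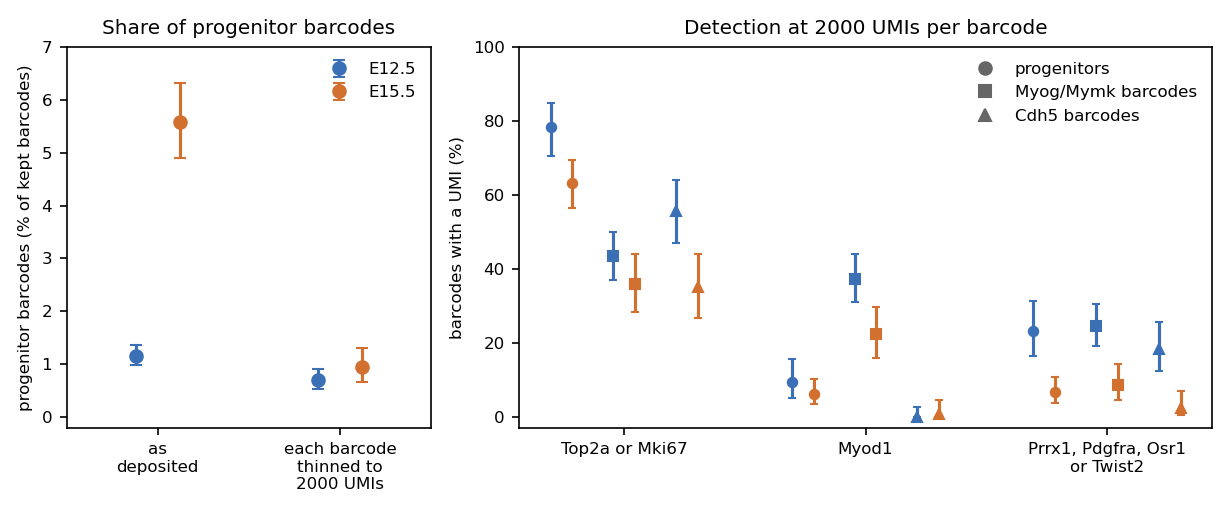
Left, progenitor barcodes as a percent of kept barcodes in each library, by the rule on the deposited counts and on barcodes thinned to 2000 UMIs. Right, percent of barcodes with a UMI after thinning, in progenitors, in barcodes with Myog or Mymk and in barcodes with Cdh5. Points are 1 library each and bars are exact binomial 95% intervals. The left intervals are apart before thinning and overlap after it.

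Genes that the rule did not use separated the progenitors from other barcodes of the same library. These values describe the cells, because the barcodes were chosen from the same counts. Of 4162 genes compared at E12.5, 2.45% were at least 2-fold higher in progenitors than in all other kept barcodes with 10 CPM added to both sides and 7.76% were lower, and of 3494 genes at E15.5, 3.03% were higher and 12.8% lower. Msc led the named genes, with 263 CPM in progenitors and 10.5 CPM in other barcodes at E12.5, and 326 and 10.5 CPM at E15.5. Fgfr4, a fibroblast growth factor receptor of muscle progenitors, stood at 66.4 CPM (others 8.77) at E12.5 and 127 CPM (others 7.90) at E15.5. Pdgfa, a platelet-derived growth factor ligand, stood at 372 and 348 CPM in progenitors and at 31.5 and 41.5 CPM in other barcodes. The same held for Vgll3, a cofactor of TEAD transcription factors (124 and 139 CPM, others 8.89 and 19.3), and for Kcne1l, a potassium channel subunit (133 and 252 CPM, others 9.49 and 16.3).

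Other genes named by the same rule were shared with differentiating cells. As a reference for these, 248 and 162 barcodes with at least 2 UMIs of Myog and Mymk combined, and none of Cdh5 or Ptprc, were used. Vgll2, another TEAD cofactor, was at 108 and 113 CPM in progenitors but at 212 and 311 CPM in Myog/Mymk barcodes. Mrln, which encodes the micropeptide myoregulin, was at 70.8 and 106 CPM against 122 and 147 CPM. Ccne1, which encodes the G1/S cyclin E1, showed the opposite order, with 214 and 381 CPM in progenitors and 40.4 and 166 CPM in Myog/Mymk barcodes. The remaining named genes were Fitm1, Nectin1, Ank1, Chd7, Arhgap29, Slf2 and Rragd, at 50.2 to 369 CPM in progenitors over both libraries.

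Markers that were listed for muscle progenitors were checked against the label. The 9 progenitor markers not used by the rule (Myod1, Pax3, Msc, Fgfr4, Dag1, Itga7, Met, Lbx1 and Chrdl2) summed to 621 and 804 CPM, against 114 and 135 CPM in other barcodes, and none of the 9 was at 0. Myog/Mymk barcodes had 471 and 555 CPM, so that the sum was largely shared with differentiating cells. In Cdh5 barcodes the sum was 67.4 and 63.4 CPM. Msc alone made up 263 and 326 CPM of the sum in progenitors. Pax3, Itga7, Lbx1 and Chrdl2 were below 50 CPM in progenitors of both libraries. Markers of differentiating muscle summed to 1571 and 710 CPM, against 27115 and 12641 CPM in Myog/Mymk barcodes. Other kept barcodes had 1148 and 940 CPM, and Cdh5 barcodes 79.1 and 32.2 CPM. The progenitors were thus far below Myog/Mymk barcodes but well above Cdh5 barcodes for these markers.

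Markers of other cell types were low, apart from those of the surrounding tissue. Among 5 endothelial markers the sum was 7.38 and 14.2 CPM (3 and 2 genes at 0), among 5 immune markers 2.95 and 1.70 CPM (4 and 2 at 0), among 5 epithelial markers 8.85 and 1.14 CPM (4 at 0 in each), and among 4 neuronal markers 5.90 and 1.99 CPM (2 and 3 at 0). The 8 connective tissue markers, none at 0, summed to 471 and 1026 CPM, against 3184 and 7798 CPM in other barcodes and 345 and 508 CPM in Cdh5 barcodes. Tendon markers summed to 31.0 and 27.3 CPM and melanocyte markers to 5.90 and 5.11 CPM. The Schwann cell list summed to 108 and 23.0 CPM, of which Erbb3 made up 95.9 and 9.66 CPM. The mural cell list summed to 118 and 119 CPM, of which Notch3 made up 100.3 and 77.3 CPM. Erythroid genes summed to 1304 and 1602 CPM, against 1108 and 1277 CPM in Cdh5 barcodes and 109 and 122 CPM in Myog/Mymk barcodes. The sum was spread unevenly, with the median progenitor at 0 and 108 CPM and the highest at 88190 and 252469 CPM. The 5 chondrocyte markers, none at 0, summed to 546 and 77.0 CPM in progenitors and to 679 and 9.60 CPM in Cdh5 barcodes. At 2000 UMIs per barcode, 23.2% (16.4 to 31.1) and 6.67% (3.78 to 10.8) of progenitors held a UMI of Prrx1, Pdgfra, Osr1 or Twist2. Cdh5 barcodes gave 18.3% and 2.38% for these genes, at median depths of 4164 and 12923 UMIs before thinning. The part of such RNA in the differences between the ages was not tested, other than by leaving out the progenitors with a UMI of these 4 genes, as given with the genes it touched.

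**Figure D2:**
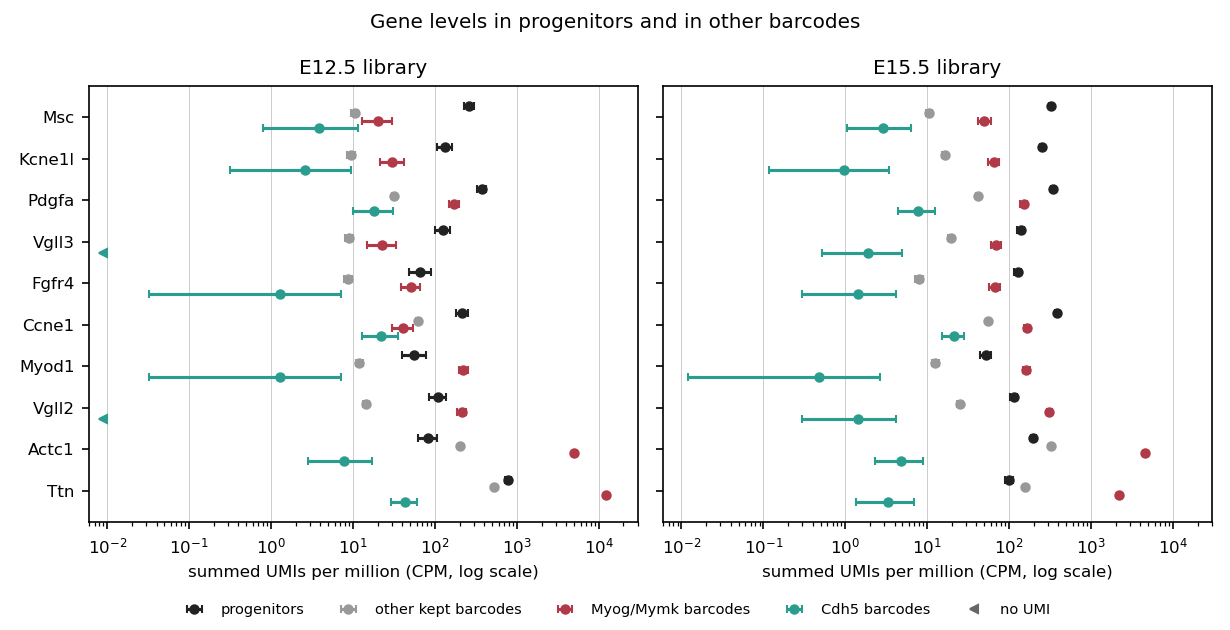
Levels of 10 genes in the E12.5 library (left) and the E15.5 library (right), in CPM on a log axis, in progenitors, all other kept barcodes, Myog/Mymk barcodes and Cdh5 barcodes. Bars are exact Poisson 95% intervals, and a triangle marks a group without a UMI. Msc is at 263 and 326 CPM in progenitors and at 20.2 and 50.1 CPM in Myog/Mymk barcodes, whereas Actc1 and Ttn are highest in the Myog/Mymk barcodes.

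Pax7 was the most abundant rule gene at both ages. It stood at 320 and 175 CPM. Myf5 was at 66.4 and 75.3 CPM, and Cdh15 at 155 and 99.4 CPM. A Pax7 UMI was found in 122 of 142 and 201 of 229 progenitors, a Myf5 UMI in 39 and 130, and both in 30 and 115. UMIs of every rule gene were found together in 5 and 87 progenitors. These numbers follow the depth and the rule. At 2000 UMIs per barcode Pax7 was detected in 55.1% and 32.9%, and Myf5 in 17.4% and 9.78%. This thinning came after the rule had chosen the barcodes at unequal depth. The thinned shares and the CPM values of the rule genes therefore follow the rule too. They are a description and cannot show a difference between the ages. Cdh15 alone had chosen 11 of the 142 and 13 of the 229.

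Myod1, the bHLH factor of myoblasts, was present in a minority of progenitors at both ages. Its level was 56.1 and 51.7 CPM, with a log2 ratio of -0.12 (-0.63 to 0.43), against 222 and 162 CPM in Myog/Mymk barcodes and 1.30 and 0.48 CPM in Cdh5 barcodes. Before thinning, 27 of 142 and 73 of 229 progenitors (31.9% of the latter) held a Myod1 UMI. After thinning to 2000 UMIs these shares were 9.42% (5.11 to 15.6) and 6.22% (3.44 to 10.2), with a difference of -3.20 points (-9.72 to 2.31). Thinned Cdh5 barcodes held a Myod1 UMI in 0 of 142, which allows up to 2.11%, and in 1 of 126. With the rule applied to thinned barcodes the difference was 7.66 points (-2.99 to 22.1), in 58 and 36 progenitors, and with thinning to 1000 UMIs it was 1.48 points (-3.76 to 5.91). The direction varied with the way depth was matched, and each of these intervals includes 0.

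Most progenitors held transcripts of dividing cells. A UMI of Top2a, the DNA topoisomerase of mitosis, or of Mki67, the Ki-67 antigen, was found at 2000 UMIs per barcode in 108 of 138 younger (78.3%, 70.4 to 84.8) and 142 of 225 older progenitors (63.1%, 56.4 to 69.4), after 4 shallower progenitors were left out of each library. The difference was -15.1 points (-24.0 to -5.45), and -3.75 points (-10.6 to 3.85) without thinning, where the shares were 88.0% and 84.3%. At the same depth the shares were 56.5% and 29.2% in other kept barcodes, 43.3% and 35.9% in Myog/Mymk barcodes, and 55.6% and 34.9% in Cdh5 barcodes. Progenitors were above each of these groups in both libraries. Among thinned progenitors with a Myod1 UMI, 13 of 13 and 9 of 14 held a UMI of Top2a or Mki67.

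Genes of the progenitors were then compared between the ages. Of 3782 genes with at least 50 CPM in 1 of the libraries, 114 (3.01%) were at least 2-fold higher at E15.5 and 399 (10.5%) at least 2-fold lower, with 10 CPM added to both sides. All other kept barcodes gave 3.04% and 10% for the same genes. The median gene of the progenitors had a log2 ratio of -0.29, and relative to that gene 265 genes (7.01%) were higher and 170 (4.49%) lower. The log2 ratio of the progenitors was at least 1 above that of other barcodes for 0.899% of the genes and at least 1 below it for 1.8%. Below, a log2 ratio is that of the CPM values of a gene, E15.5 over E12.5, with nothing added.

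**Figure D3:**
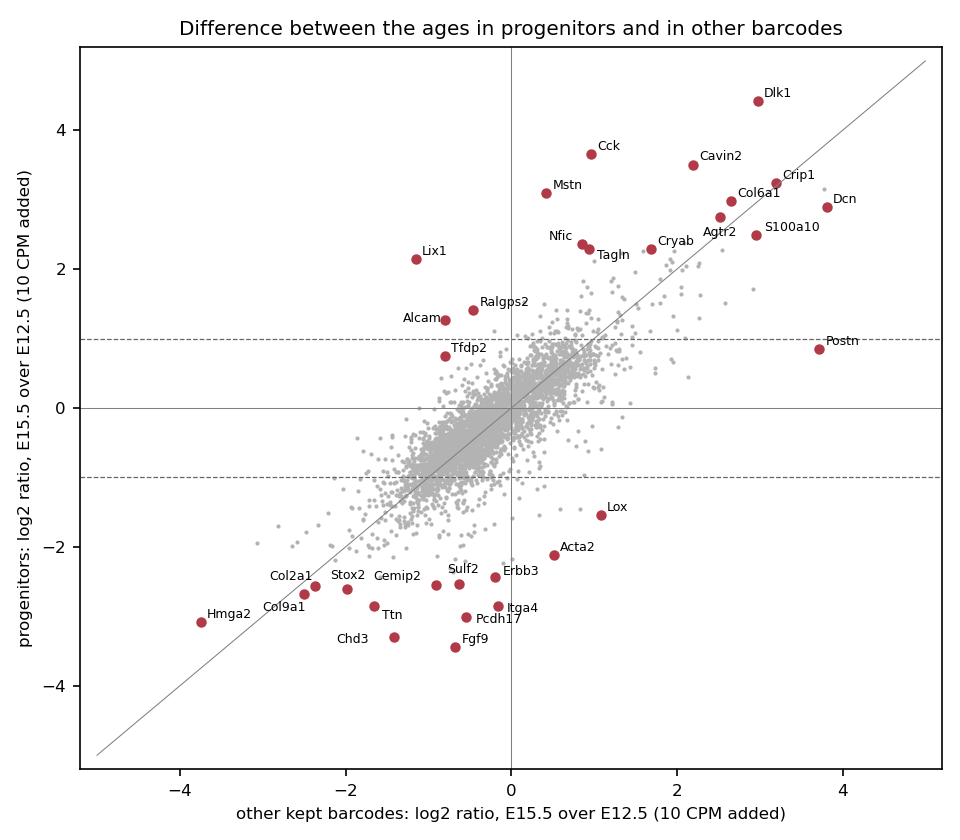
Log2 ratio of each of 3782 genes between the ages (E15.5 over E12.5, 10 CPM added), in progenitors on the vertical axis and in all other kept barcodes on the horizontal axis. Labelled points are the genes named by rank, dashed lines mark 2-fold differences in progenitors, and the diagonal marks equal ratios. Lix1, Cck and Mstn lie above the diagonal, and Fgf9, Itga4, Acta2 and Lox lie below it.

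Cck and Mstn were nearly absent from progenitors at E12.5 and present at E15.5. Mstn encodes myostatin, a secreted ligand that limits muscle growth. It had 2 and 355 UMIs (2.95 and 101 CPM), with a log2 ratio of 5.09 (3.23 to 8.15). In Myog/Mymk barcodes Mstn stood at 149 and 136 CPM, and in other kept barcodes at 6.82 and 12.54 CPM. Cdh5 barcodes had 1.30 and 0.48 CPM. The Mstn level of progenitors was therefore far below that of Myog/Mymk barcodes at E12.5 and close to it at E15.5. With Myog and Mymk barcodes kept among the progenitors, the ratio with 10 CPM added was 0.55 in place of 3.10.

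Cck encodes the peptide hormone cholecystokinin. No UMI was found in progenitors at E12.5, and 408 were found at E15.5 (116 CPM, in 117 of 229 barcodes). Taken against the 3 UMIs that a count of 0 allows over all E12.5 progenitors (4.43 CPM), the level at E15.5 was higher by at least 4.71 on the log2 scale. Myog/Mymk barcodes had 3.37 and 73.8 CPM and Cdh5 barcodes 0 and 0.48 CPM. All other kept barcodes together held 405 UMIs at E15.5, 193 of them in Myog/Mymk barcodes.

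The 250 bases upstream of both genes are shown because they went from near 0 to over 100 CPM in progenitors. E-boxes (CANNTG) are the core sequence that bHLH factors such as Myf5 and Myod1 can bind. Cavin2, Crip1, Agtr2 and Col6a1 rose in a like way, as given below, and their windows are not shown. The sequences are RefSeq's for build GRCm38.p6, 5′ to 3′ on the strand of the gene, with each CANNTG in capitals. The Mstn window is chr1:53061390-53061639 on the plus strand and the Cck window chr9:121495695-121495944 on the minus strand.
Mstn: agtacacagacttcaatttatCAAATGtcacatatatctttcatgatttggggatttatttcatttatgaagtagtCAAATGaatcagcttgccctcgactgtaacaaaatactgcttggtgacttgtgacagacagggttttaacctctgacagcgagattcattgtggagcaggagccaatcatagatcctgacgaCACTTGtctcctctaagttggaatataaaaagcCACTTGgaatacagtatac
Cck: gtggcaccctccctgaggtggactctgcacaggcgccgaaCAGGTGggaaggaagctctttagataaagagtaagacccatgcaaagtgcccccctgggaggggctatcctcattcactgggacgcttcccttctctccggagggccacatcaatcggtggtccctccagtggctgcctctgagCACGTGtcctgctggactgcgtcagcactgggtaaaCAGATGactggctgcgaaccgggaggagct
The motif reads the same on both strands, so that 1 search covers both. The Mstn window holds 4 matches and the Cck window 3, and none is a CAGCTG. Windows of Fgf9 and Pax7, searched in the same way, hold 0 matches each. Among 32851 such windows 66.2% hold at least 1 CANNTG, the median is 1, and 3.84% hold 4 or more. The share with 3 or more, to set beside Cck, was not counted. A match is a description of these letters and was not tied to binding in these data.

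Dlk1 had the highest log2 ratio with 10 CPM added among the named genes. It encodes a membrane protein of the Delta family made in foetal muscle and other growing tissues. It went from 32.5 CPM (22 UMIs) to 901 CPM (3170 UMIs), a log2 ratio of 4.79 (4.19 to 5.47). Other kept barcodes had 211 and 1729 CPM, with a log2 ratio of 3.04, and Cdh5 barcodes had 31.1 and 119 CPM. At 2000 UMIs, 7.97% and 79.1% of progenitors held a Dlk1 UMI.

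Lix1 had the largest gap to other barcodes among the genes with a UMI in each group. It was at 7.38 and 67.0 CPM in progenitors, with a log2 ratio of 3.18 (1.94 to 4.82), while other barcodes went from 44.7 to 14.6 CPM. Alcam, an adhesion molecule of the immunoglobulin family, was at 25.1 and 74.4 CPM in progenitors and at 197 and 109 CPM in other barcodes. Ralgps2, an exchange factor for Ral GTPases, was at 60.5 and 178 CPM, against 77.9 and 53.9 CPM. Tfdp2, the DNA-binding partner of E2F factors, was at 63.4 and 113 CPM, against 79.7 and 41.6 CPM, and was not called by age in progenitors. The Alcam call was lost with the rule on thinned barcodes (0.36 with 10 CPM added), with 1 UMI of the rule genes (0.29) and in male barcodes (0.38), and that of Ralgps2 with Myog and Mymk barcodes kept in (0.52) and in male barcodes (0.90).

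Further named genes were higher at E15.5 in progenitors, and those given with values for other barcodes were higher there too. S100a10, a calcium-binding protein partner of annexin A2, was at 152 and 898 CPM (others 84.3 and 721). Cavin2, a coat protein of caveolae, was at 4.43 and 154 CPM (others 14.6 and 103), and Agtr2, the type 2 angiotensin receptor, at 7.38 and 107 CPM (others 34.0 and 242). Crip1 was at 7.38 and 154 CPM (others 33.9 and 394). Tagln, an actin-binding protein of smooth and embryonic muscle, was at 53.1 and 299.7 CPM in progenitors and at 34.9 and 75.8 CPM in others. Cryab, a small heat shock protein of muscle, had 2 and 187 UMIs (2.95 and 53.1 CPM), and its call was lost with Myog and Mymk barcodes kept in (0.81 with 10 CPM added). The collagen VI subunit Col6a1 (7.38 and 127 CPM, others 56.5 and 407) and the proteoglycan Dcn (4.43 and 96.9 CPM, others 57.8 and 942) are genes of connective tissue. In Cdh5 barcodes Col6a1 was at 6.48 and 17.3 CPM and Dcn at 1.30 and 77.8 CPM. Without progenitors that held a connective tissue UMI the Dcn ratio with 10 CPM added was 0.96 in place of 2.89.

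Of the genes lower at E15.5, Fgf9 had the lowest log2 ratio with 10 CPM added among those named by rank. Fgf9, a secreted fibroblast growth factor (chr14:58070547-58112720), went from 136 CPM (92 UMIs) to 3.41 CPM (12 UMIs), a log2 ratio of -5.32 (-6.32 to -4.44). It went from 88.5 to 9.56 CPM in Myog/Mymk barcodes and from 11.9 to 3.73 CPM in other barcodes. Itga4, the integrin subunit that binds Vcam1 and fibronectin (chr2:79255426-79333123), went from 288 CPM to 31.2 CPM, a log2 ratio of -3.20 (-3.55 to -2.86). Its level was 410 and 55.1 CPM in Myog/Mymk barcodes, and 38.9 and 34.0 CPM in other kept barcodes. At E12.5 both genes were thus concentrated in the muscle barcodes, and at E15.5 progenitors and other barcodes had similar levels.

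The same pattern was seen for Erbb3, a neuregulin receptor, with 95.9 and 9.66 CPM in progenitors and 14.3 and 11.2 CPM in other barcodes. Acta2, the smooth muscle actin that embryonic skeletal muscle also makes, was at 642 and 140 CPM (log2 ratio -2.19, -2.38 to -2.00) while other barcodes had 113 and 166 CPM. Pcdh17, a protocadherin, was at 214 and 17.9 CPM (others 118 and 77.8), and Sulf2, which trims sulphate groups from heparan sulphate, at 161 and 19.6 CPM (others 204 and 128). Lox, the enzyme that crosslinks collagen and elastin, was at 93.0 and 25.3 CPM, against 53.1 and 124 CPM in others, and its call was lost with 1 UMI of the rule genes (-0.82 with 10 CPM added) and in male barcodes (-0.73). Postn, a matrix protein of connective tissue, was at 102 and 191 CPM in progenitors and at 67.3 and 1009 CPM in other barcodes, a difference of the log2 ratios of -2.997.

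Several named genes were lower at E15.5 in every group of barcodes compared. Hmga2, a chromatin protein of early growth, went from 537 to 54.5 CPM in progenitors, from 1170 to 77.8 CPM in other barcodes and from 271 to 17.6 CPM in Myog/Mymk barcodes. Chd3, a chromatin remodeller, went from 305 to 22.2 CPM (others 622 to 228). Stox2 went from 156 to 17.3 CPM (others 204 to 44.3), and Cemip2 from 133 to 14.5 CPM (others 104 to 51.0). Ttn, the giant sarcomere protein, went from 783 to 99.7 CPM in progenitors and from 12253 to 2181 CPM in Myog/Mymk barcodes, and was at 42.8 and 3.36 CPM in Cdh5 barcodes. The cartilage collagens Col2a1 (261 and 35.8 CPM) and Col9a1 (105 and 7.95 CPM) stood beside 319 and 104 CPM in Cdh5 barcodes of the E12.5 library. At E15.5 a single progenitor held 41.3% of the Col2a1 UMIs.

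Most of the upstream regulators of the muscle lineage were below the level needed to enter. Of 16 genes listed, 4 entered, 2 were lower, none was higher, and the median log2 ratio of the 4 with 10 CPM added was -1.24 (others -1.14), beside 3.01% higher, 10.5% lower and a median of -0.29 over all genes, which are also the values to set beside each list below. The homeodomain factor Six4 was at 70.8 and 17.0 CPM, and its cofactor Eya1 at 140 and 19.3 CPM. Eya4, of the same cofactor family, was at 102 and 49.7 CPM, and its log2 ratio with 10 CPM added was -0.90, short of the limit. The Six4 call was lost with the rule on thinned barcodes (-0.72 with 10 CPM added). Msc did not follow them, with a log2 ratio of 0.31 (0.08 to 0.55). Pax3, the paired-box factor of migrating progenitors, did not enter, with 20 and 10 UMIs (29.5 and 2.84 CPM). Lbx1, another factor of migrating progenitors, was at 31.0 and 23.9 CPM.

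Genes of differentiation were far lower in progenitors than in Myog/Mymk barcodes. The 29 listed summed to 2867 and 1406 CPM in progenitors, to 2055 and 1854 CPM in other barcodes and to 35557 and 19280 CPM in Myog/Mymk barcodes. Of the 11 that entered, Actc1 and Des were higher, and Acta2, Ttn and Cdh2 lower, beside 3.01% and 10.5% over all genes, with a median of -0.86 (others 0.04). Actc1, the cardiac actin of embryonic muscle, was at 82.6 and 198 CPM, against 4931 and 4503 CPM in Myog/Mymk barcodes. Des, the intermediate filament desmin, was at 32.5 and 75.9 CPM, against 399 and 330 CPM. With Myog and Mymk barcodes kept in, both turned direction, to -0.36 for Actc1 and -0.13 for Des, with 10 CPM added. The Actc1 call (1.17) was also lost with the rule on thinned barcodes (0.91), with 1 UMI (0.83) or 3 UMIs (0.99) of the rule genes and in female barcodes (0.80). That of Des (1.02) was lost with 1 UMI (0.89) or 3 UMIs (0.85), without the highest doublet scores (0.92) and with each barcode scaled to the same total (0.87). Tnnt1, the slow troponin T, was at 627 and 314 CPM and just under the 2-fold limit. With fewer UMIs per barcode at E12.5, the exclusion by Myog and Mymk was less strict there. Its part in the differences of these genes between the ages was not tested.

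Among 24 genes of satellite cells 12 entered, 3 were higher and 2 lower, beside 3.01% and 10.5% over all genes, with a median of -0.12 (others 0.03). As a sum the list was not raised in progenitors, at 1505 and 1554 CPM. Other barcodes had 1786 and 1847 CPM, Cdh5 barcodes 2623 and 3290 CPM, and Myog/Mymk barcodes 1440 and 1126 CPM. The higher ones were the adhesion molecule Vcam1 (11.8 and 52.6 CPM), the laminin receptor dystroglycan Dag1 (87.1 and 232 CPM) and the lectin-like Chodl (39.8 and 96.3 CPM). The lower ones were the heparan sulphate proteoglycan Sdc3 (112 and 36.9 CPM) and the factor Dmrt2 (53.1 and 13.1 CPM). Vcam1, the ligand of the integrin that contains Itga4, thus went the opposite way to Itga4. Itga7, the muscle laminin receptor, did not enter, with 1 and 74 UMIs (1.48 and 21.0 CPM). The calls of Vcam1 (0.92) and Dmrt2 (-0.79) were lost with 1 UMI of the rule genes, those of Dmrt2 (-0.95) and Sdc3 (-0.97) with Myog and Mymk barcodes kept in, and that of Chodl (0.91) with the rule on thinned barcodes, each with 10 CPM added.

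The Notch pathway keeps muscle progenitors from differentiating. Of its 24 listed genes 7 entered, 1 was higher (Dlk1) and 2 were lower, beside 3.01% and 10.5% over all genes, with a median of -0.44 (others -0.51; all genes -0.29). The receptor Notch2 was at 60.5 and 20.2 CPM and the effector Hey1 at 91.5 and 22.2 CPM, and the Notch2 call was lost relative to the median gene (-0.93). The receptor Notch3 was at 100 and 77.3 CPM and the transcriptional partner Rbpj at 227 and 219 CPM. The effector Hes1 was the most abundant, with 1080 and 796 CPM, and Heyl, at 44.3 and 41.8 CPM, did not enter.

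As a list, cell cycle genes differed little between the ages in progenitors. Of 25 listed, 23 entered, 1 was higher (Aurkb, 45.7 and 116 CPM) and 1 lower (Cenpe, 292 and 128 CPM), with a median of -0.05, beside -0.46 for the same genes in other barcodes. Aurkb is a mitotic kinase and Cenpe a kinetochore motor. Mki67 was at 826 and 419 CPM, and Top2a at 1177 and 1077 CPM. Of 16 D cyclins and inhibitors 7 entered. The cyclins Ccnd1 (159 and 64.2 CPM) and Ccnd2 (713 and 154 CPM) were lower, and the inhibitor Cdkn1c (p57; 2460 and 6391 CPM) and the antiproliferative gene Btg2 (53.1 and 168 CPM) were higher. Ccnd3 was at 238 and 306 CPM. Cdkn1c was at 6570 and 11349 CPM in Myog/Mymk barcodes and at 771 and 529 CPM in Cdh5 barcodes. Relative to the median gene the Ccnd1 (-0.90) and Cenpe (-0.84) calls were lost, with Myog and Mymk barcodes kept in those of Cenpe (-0.91) and Btg2 (0.54), and in female barcodes that of Aurkb (0.88). Without ribosomal, haemoglobin and mitochondrial UMIs Cenpe was at -0.99.

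Regulators of the step from embryonic to foetal muscle included the nuclear factor I genes. Of 20 listed, 9 entered, 4 were higher and 2 lower, with a median of 0.85 (others 0.31). Nfix, the factor that switches on the foetal programme, was at 33.9 and 125 CPM, a log2 ratio of 1.88 (1.28 to 2.55). Nfia was at 81.1 and 247 CPM, a log2 ratio of 1.60 (1.21 to 2.02), and Nfic at 10.3 and 94.6 CPM, a log2 ratio of 3.20 (2.14 to 4.52). Nfib, the fourth of the family, was at 375 and 686 CPM, with a log2 ratio of 0.87 (0.68 to 1.06), and was not called. In other barcodes the log2 ratios of Nfia, Nfib, Nfic and Nfix were 0.42, 0.32, 0.97 and 0.89, all lower than in progenitors. Both other scalings kept all 4 ratios above 0, and Nfib then passed the limit, at 1.15 relative to the median gene and 1.02 without ribosomal, haemoglobin and mitochondrial UMIs. The calls of Nfia (0.77 with 10 CPM added) and Smad7 (-0.87) were lost with the rule on thinned barcodes. The remaining higher gene was Mstn, and the lower genes were the signalling inhibitor Smad7 (57.5 and 17.0 CPM) and the guidance receptor Robo1 (63.4 and 17.0 CPM).

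Heterochronic genes, which mark early growth stages, were lower in progenitors and in other barcodes alike. Of 10 listed, 5 entered and 4 were lower in each, with medians of -1.49 and -1.52. They were Hmga2, Hmga1 (78.2 and 21.3 CPM) and the RNA-binding proteins Igf2bp1 (297 and 65.6 CPM) and Igf2bp3 (201 and 73.3 CPM). Of 27 growth factor receptors 15 entered, 6 were lower and 1 higher (Agtr2), beside 10.5% and 3.01% over all genes, with a median of -0.78 (others -0.58). The lower receptors were Erbb3, Met, which binds hepatocyte growth factor (84.1 and 18.2 CPM), Igf1r (360.0 and 171 CPM), Bmpr2 (208 and 56.2 CPM), the activin and myostatin receptor Acvr2a (115 and 34.1 CPM) and the hedgehog receptor Ptch1 (100 and 19.03 CPM). Fgfr1 was at 109 and 103 CPM. The Met call was lost in male barcodes (-0.73 with 10 CPM added). The Igf1r call (-1.03) was lost under 6 alternatives, with values of -0.74 relative to the median gene, -0.83 with the rule on thinned barcodes, -0.88 in female barcodes and without ribosomal, haemoglobin and mitochondrial UMIs, -0.93 with 1 UMI of the rule genes and -0.99 with Myog and Mymk barcodes kept in.

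Of 41 matrix and adhesion genes 21 entered, 5 were higher and 5 lower, beside 3.01% and 10.5% over all genes, with a median of -0.15 (others -0.15; all genes -0.29). The basement membrane genes Col4a1 (176 and 468 CPM), Col4a2 (117 and 262 CPM) and Lamc1 (29.5 and 69.3 CPM) were higher, as were Dag1 and Col6a1. The basement membrane linker Nid2 (109 and 33.5 CPM), the proteoglycan Vcan (757 and 344 CPM) and the cadherins Cdh2 (84.1 and 26.4 CPM) and Cdh11 (106 and 26.7 CPM) were lower, as was Itga4. The Lamc1 call (1.01 with 10 CPM added) was lost under 6 alternatives, with values from 0.60 with the rule on thinned barcodes to 0.95 with each barcode scaled to the same total, where Col4a2 was at 0.96. The Nid2 call was lost with 1 UMI of the rule genes (-0.76) and in male barcodes (-0.73), and that of Vcan relative to the median gene (-0.82) and without ribosomal, haemoglobin and mitochondrial UMIs (-0.96). Of 15 imprinted growth genes 12 entered, Dlk1, Meg3 (569.5 and 1539 CPM) and Cdkn1c were higher and Igf2 (1440 and 555 CPM) lower, with a median of -0.26 (others -0.15). The Meg3 ratio with 10 CPM added was 0.17 with Myog and Mymk barcodes kept in, 0.82 with 1 UMI of the rule genes and 0.97 in male barcodes. Of 22 Hox genes of limb levels 1 entered, Hoxa10, at 54.6 and 47.7 CPM. Genes of the dissociation and stress response were higher in progenitors (9 of 15 that entered, median 1.07) and in other barcodes (10 of 15, median 1.45), among them Fos (102 and 470 CPM) and Junb (54.6 and 301 CPM). The part of handling in the differences between the ages was not tested.

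**Figure D4:**
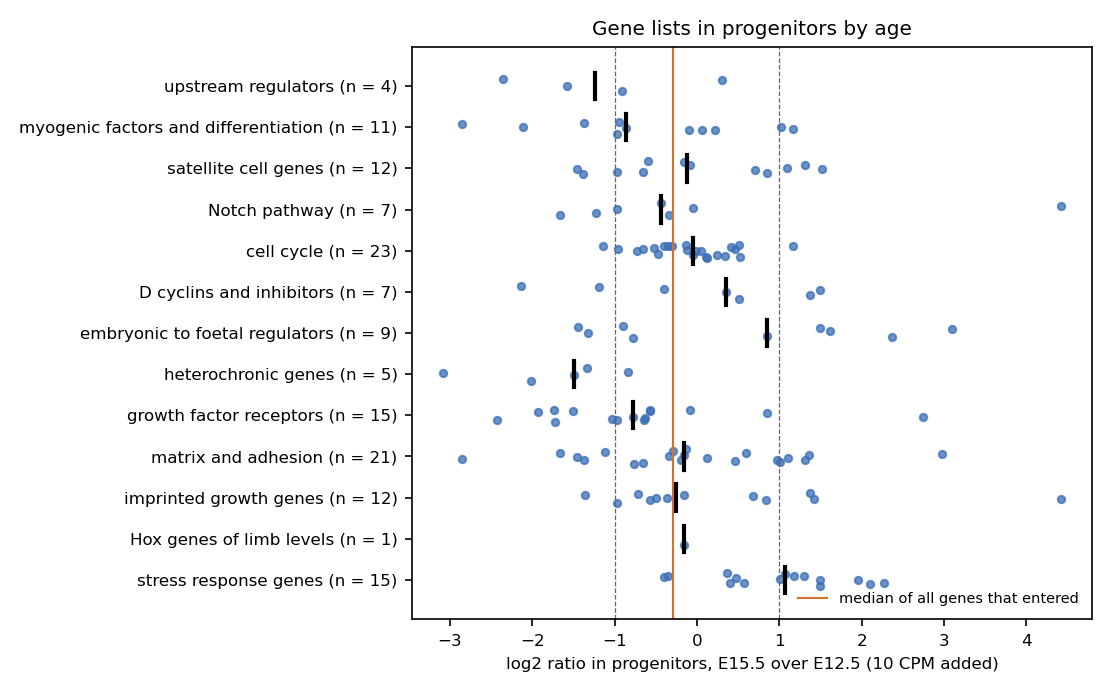
Log2 ratio between the ages in progenitors (E15.5 over E12.5, 10 CPM added) for each gene of 13 lists that entered the comparison. Points are genes, black bars are list medians, the vertical orange line is the median of all genes at -0.29 and dashed lines mark 2-fold differences. Of the 5 heterochronic genes 4 lie below -1, and 4 of the 9 embryonic to foetal regulators lie above 1.

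Summed UMIs of progenitors with and without Myod1 differed at E15.5 in muscle genes and in genes of connective tissue, cartilage and red blood cells. There, 73 progenitors with a Myod1 UMI were set beside 156 without one, at median depths of 17285 and 13522.5 UMIs. Of 3068 genes 9 (0.293%) were at least 2-fold higher and 19 (0.619%) at least 2-fold lower in those with Myod1, with 10 CPM added. Ttn was at 194 CPM with and 43.5 CPM without Myod1, Actc1 at 348 and 110 CPM, Des at 119 and 50.3 CPM, and the RNA-binding protein gene Rbm24 at 233 and 101 CPM. Mstn was at 174 CPM with and 57.5 CPM without Myod1, a log2 ratio of 1.60 (1.28 to 1.92). Ccne1 was at 518 and 300.3 CPM. In the other direction, Chodl was at 44.2 CPM with and 127 CPM without Myod1 (log2 ratio -1.53, -1.96 to -1.11). Msc was at 255 and 369 CPM, Nfix at 96.0 and 142 CPM, Notch3 at 57.9 and 88.8 CPM, and Spry1, an inhibitor of growth factor signalling, at 54.1 and 85.1 CPM. Fgfr4 differed by less than its counting error (134 and 123 CPM). Genes of other cell types were also lower in progenitors with Myod1. The connective tissue genes Dcn (45.7 CPM with and 127 CPM without), Lum (13.7 and 53.9 CPM), Col1a1 (140 and 287 CPM) and Postn (112 and 238 CPM) were lower, as were the cartilage collagen Col2a1 (3.05 and 55.3 CPM) and the globins Hbb-bs (60.2 and 1183 CPM) and Hba-a1 (11.4 and 432 CPM). The stress gene Fos was at 335 and 551 CPM. The cartilage and globin values were spread unevenly over barcodes. A single progenitor held a large part of the Col2a1 UMIs, as given above. Over all E15.5 progenitors the erythroid sum was at 108 CPM in the median barcode and at 252469 CPM in the highest. The part of such RNA, and of single barcodes, in the split was not tested. At E12.5, where 27 progenitors had a Myod1 UMI and 115 had none, 4.74% of 4113 genes differed by at least 2-fold (2.7% higher and 2.04% lower), and Actc1 (164 and 57.8 CPM) and Chodl (6.32 and 50.1 CPM) had the same direction as at E15.5. Notch3 (126 and 92.4 CPM) and Nfix (44.2 and 30.8 CPM) had the opposite direction there, within their counting error, Des was at 31.6 and 32.7 CPM, and Mstn had 0 and 2 UMIs. The globins were higher in progenitors with Myod1 at E12.5, with Hbb-y at 3366 and 86.6 CPM and Hba-a1 at 695 and 17.3 CPM. Over all E12.5 progenitors the erythroid sum was at 0 CPM in the median barcode and at 88190 CPM in the highest. The part of single barcodes in the globin differences was not tested. A barcode without a Myod1 UMI may still have contained the transcript, and deeper barcodes are more likely to show it.

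**Figure D5:**
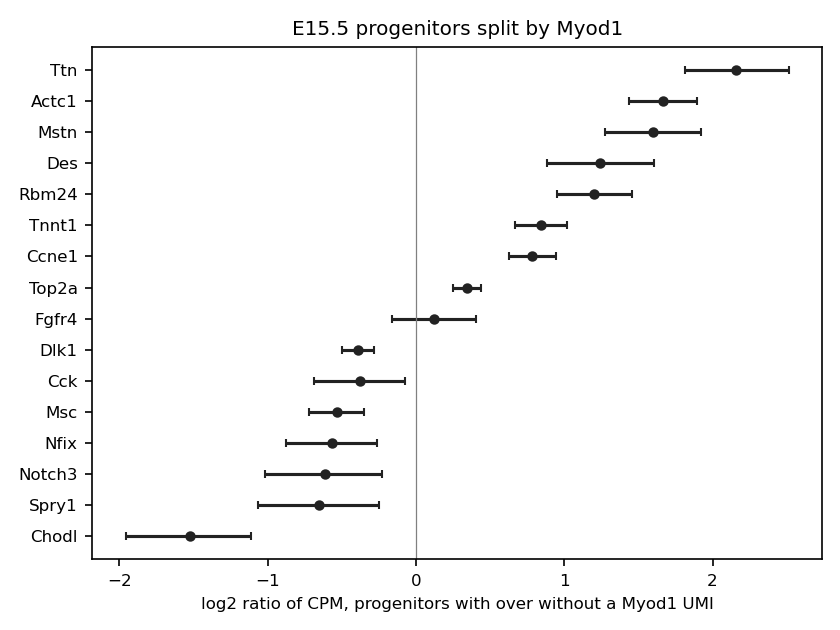
Log2 ratio of CPM in the E15.5 library, progenitors with a Myod1 UMI over progenitors without one, for 16 genes named in the text or in the gene lists. Points are ratios of summed UMIs of 73 and 156 barcodes and bars are exact conditional 95% intervals. Ttn, Actc1, Mstn and Des lie to the right of 0, and Chodl, Spry1, Notch3, Nfix and Msc to the left.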

How the data were processed

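Droplet single-cell RNA sequencing (10x Genomics 3′ chemistry) measured 1 library per age. The authors deposited raw UMI counts for each gene and barcode, and name Cell Ranger 4.0.0, Seurat 4.3.0 and genome build mm10, per the submitters' processing notes. The annotation release and the cell-calling settings are not given in the sources used here. The deposited barcodes numbered 12941 and 5780, with 34907675 and 46966083 UMIs. Those under 500 genes (604 and 1376) and then those with 10% or more mitochondrial UMIs (66 and 298) were left out. Progenitors were chosen by the rule given above. The members, gene lists and comparisons were chosen with earlier results of these data known.

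UMIs were summed over progenitors per library (677767 and 3520068 UMIs) and expressed as CPM. Intervals were exact Poisson for CPM, exact binomial (Clopper-Pearson) for shares, exact conditional for ratios, and Newcombe's for differences of shares. They cover counting error only. Genes entered at 50 CPM in 1 of the libraries, without the rule genes, mitochondrial genes, Xist and Y-linked genes, and were called at a log2 ratio of 1 or more, or -1 or less, with 10 CPM added. A count of 0 was taken to allow 3 counts. Shares were compared after thinning each barcode to 2000 UMIs (seed 11), leaving out shallower barcodes. Doublets were scored against simulated doublets and the top 0.8% per 1000 deposited barcodes (1270 and 190) marked but kept in the main result. Cdh5 barcodes, a reference for free RNA, had at least 2 UMIs of Cdh5 and none of the rule genes, Myog, Mymk or Ptprc.

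Named genes were the 15 most above other barcodes in the less favourable library, the 12 highest and 12 lowest by age, and the 6 highest and 6 lowest by the difference of the age ratio from other barcodes, without ribosomal, haemoglobin and unnamed genes. Members of 13 gene lists were named too (some genes are not reported here and were left out of the lists and their sums), and the genes of the split by Myod1 were chosen after their values were seen. Gene positions came from a GENCODE annotation of GRCm38 that held 32158 of the 32285 gene identifiers. Alternatives were other rule minimums and exclusions, thinning before the rule, cell filters, doublets, scaling, CPM added, CPM minimums, sex and thinning depths. Python 3.11.15, numpy 2.4.6, scipy 1.17.1, pandas 2.3.3, scikit-learn 1.9.0 and matplotlib 3.10.9 were used. The calculations were tested on simulated data.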

Additional observations from a re-analysis of the deposited data

Results flagged for a closer look

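For 6 of the named or listed genes the progenitors and the other kept barcodes of the same libraries went in opposite directions between the ages, where the gene was called in progenitors and the log2 ratio of other barcodes was at least 0.5 in size with 10 CPM added. Ralgps2, at -0.46 in other barcodes, fell short of that limit. The differences were not tested, since each age has 1 library. The value given is the log2 ratio of the progenitors minus that of the other barcodes. It was 4.80 for Lix1 and 2.43 for Alcam, which were higher at E15.5 in progenitors and lower in other barcodes. It was -2.74 for Acta2, -3.10 for Lox, -3.30 for Dmrt2 (others 11.9 and 28.9 CPM) and -2.36 for Nid2 (others 67.9 and 107 CPM), which were lower at E15.5 in progenitors and higher in other barcodes.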

How the results depend on the processing

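The share of progenitors followed the rule and the filters. In the E12.5 library it was 0.706%, and 0.939% in the E15.5 library, with the rule on thinned barcodes, 3.01% and 7.77% with 1 UMI of the rule genes, 0.481% and 4.48% with 3, and 1.92% and 8.43% with Myog and Mymk barcodes kept in. It was 1.38% at E12.5 with at least 1000 genes and 4.53% at E15.5 under 5% mitochondrial UMIs. The 114 genes higher at E15.5 became 265 relative to the median gene, 224 without ribosomal, haemoglobin and mitochondrial UMIs, 232 with a minimum of 10 CPM or none, and 222 in male barcodes (29 and 36 progenitors). The 399 lower genes became 170 relative to the median gene, 692 with a minimum of 10 CPM or none, and 800 in male barcodes. Genes higher than in other barcodes, 102 at E12.5 and 106 at E15.5, became 55 and 67 with 1 UMI of the rule genes. At E12.5 they became 192 with Myog and Mymk barcodes kept in and 157 with a minimum of 10 CPM or none. Of the list genes, 27 were higher and 29 lower, against 16 higher with Myog and Mymk barcodes kept in and 45 lower in male barcodes. The cycling difference was -25.01 points at 4000 UMIs and -3.75 points without thinning, and the Myod1 difference 7.66 points with the rule on thinned barcodes. Actc1 (-0.36) and Des (-0.13) turned direction with Myog and Mymk barcodes kept in. The causes were not tested. Of 77 named or listed genes at least 2-fold apart by age with 10 CPM added, 75 kept their direction and 44 stayed 2-fold under every alternative. The 77 include Pax3 and Eya2, which were too low to enter and so were not called. No paired analysis was possible because each age has 1 library.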

Other observations

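Some genes of the lists were too low to enter but had more UMIs at E15.5 in progenitors. Lama5, the laminin chain of mature basement membranes, had 3 and 118 UMIs (4.43 and 33.5 CPM), against 2.22 and 2.79 CPM in other barcodes. Itga6, a laminin receptor subunit, was at 7.38 and 38.1 CPM, Col15a1 at 5.90 and 36.6 CPM, and Cd44 at 4.43 and 39.2 CPM. The perinatal myosin Myh8 was at 5.90 and 36.4 CPM, against 217 and 157 CPM in Myog/Mymk barcodes. In the other direction, Fras1, an extracellular matrix gene, had 21 and 5 UMIs (31.0 and 1.42 CPM), and the integrin subunit Itga9 was at 45.7 and 4.83 CPM. These genes were chosen after their values were seen.

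Ribosomal protein genes took 18.1% and 26.2% of the UMIs of progenitors, against 12.9% and 20.5% in other barcodes. By Xist and Y-linked UMIs, 29 progenitors of the E12.5 library were male and 72 female, and 36 and 169 of the E15.5 library. Both signals were found in 7 and 11 progenitors and neither in 34 and 13, so that these were not assigned a sex.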
